A study of Bos taurus with 44 samples.

Results

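Collagen genes and the genes that modify, fold, trim and cross-link collagen were followed across all comparisons of the series. The members are every measured gene whose symbol has the form COL, a number, A and a number, together with the named processing genes of the LOXL, PLOD and P4HA families, P4HB, SERPINH1 and PCOLCE. They came to 42 of the 8073 genes named on the array: 29 collagen genes and 13 of the 15 processing genes looked for, since LOX and BMP1 were not among the named probes. Each gene was read from 1 probe, the one with the fewest missing values, and no value of a member was missing on any array. By role, the members are 9 fibril-forming collagens, 5 fibril-associated collagens, 6 basement membrane collagens, 4 chains of collagen VI, 3 network-forming or anchoring collagens, 2 transmembrane collagens, 7 hydroxylase genes, 2 genes of chaperoning and propeptide removal and 4 cross-linking genes.

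Collagen is made as chains that are hydroxylated on proline and lysine in the endoplasmic reticulum, wound into a triple helix under the chaperone encoded by SERPINH1, secreted, trimmed of its propeptides and cross-linked by lysyl oxidases. Type I and type III collagen form the fibrils of the uterine stroma, type VI forms beaded filaments around cells, and type IV forms the sheet under epithelium and around vessels. In ruminants the uterine lining has raised aglandular areas, the caruncles, where the placenta attaches, and glandular intercaruncular areas between them.

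The values come from 44 cattle arrays, each holding RNA of frozen tissue from 2 sources, 1 dyed with Cy3 and the other with Cy5. The labels give the area of the array and say which group and which animal or pool carries each dye. Cattle marked IVF-ET (FIV; in vitro fertilisation with embryo transfer) were hybridised against cattle marked AI (IAT; artificial insemination) on 10 arrays for each area, with 5 animals of each group in an area. Cattle marked SCNT (NT; somatic cell nuclear transfer) and a further group marked AI (IAJ) were each compared with animals marked CJ, glossed in the labels as cycle: 5 SCNT, 4 IAJ and 5 CJ animals on 10 arrays a comparison, all intercaruncular. SCNT and IAJ RNA of the caruncular area was compared in pools, 2 pools of each group on 4 arrays. The labels give no stage, no breed or age and no number of animals in a pool. The group names give the method of breeding, and nothing in the labels describes the embryo. All values below are log2 ratios or log2 differences between groups, so they hold no level of a gene and the labelled tissue could not be checked by the presence of its markers. Whether fewer collagen-producing cells or less collagen RNA per cell lies behind a lower value cannot be told apart in whole tissue.

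The labels leave unsaid which dye is the numerator, and signs are given as Cy5 divided by Cy3. This direction is likely, because it places interferon-stimulated genes above and the oxytocin receptor below the CJ animals, the direction known for early ruminant pregnancy. Under the other reading every sign below turns, and the sizes and adjusted p-values stay. A gene was called where its adjusted p from limma (Benjamini-Hochberg over all probes) was below 0.05, and ± is a standard error (SE) unless said otherwise.

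Some arrays stood apart. For interferon-stimulated genes, animal IAJ 3, labelled AI, lay near its CJ partners where the 3 other IAJ animals did not. For 6 interferon-stimulated genes the median ratio to CJ was -0.25 in IAJ animal 3. It was 4.30, 4.92 and 4.05 in IAJ animals 1, 2 and 4, and between 3.59 and 4.40 in the 5 SCNT animals. Not every value of IAJ animal 3 lay near CJ: 4 of 42 members were at or above 1 in it. IAJ animal 3 is on 4 arrays, 2 of which pair it with CJ animal 3 in both dye orientations. In the intercaruncular IVF-ET loop, 3 of 10 arrays carried interferon medians of 3.18, 3.74 and -4.11, while the 7 other arrays lay between -0.21 and 0.60. Where these animals enter a result below, values without them are given beside it for many of the members named. Such values are not given for the difference between the areas. The cause was not tested.

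In the intercaruncular area of SCNT animals, a group of collagen and processing genes was lower than in CJ animals, while most collagen genes were not called. Of 42 members, 19 fell and 1 rose, where 11.3% of all probes tested fell and 10.4% rose. The median difference of the members was -0.24, and that of all probes was 0.01. Collagen VI chain COL6A3 and the fibrillar chains COL1A2, COL1A1 and COL3A1 had the largest differences, each more than 7-fold lower. The processing genes took part as well, with 9 of 13 lower (median -0.68). Of 29 collagens 10 were lower, 1 was higher and the others were not called (median -0.12).

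**Figure D1:**
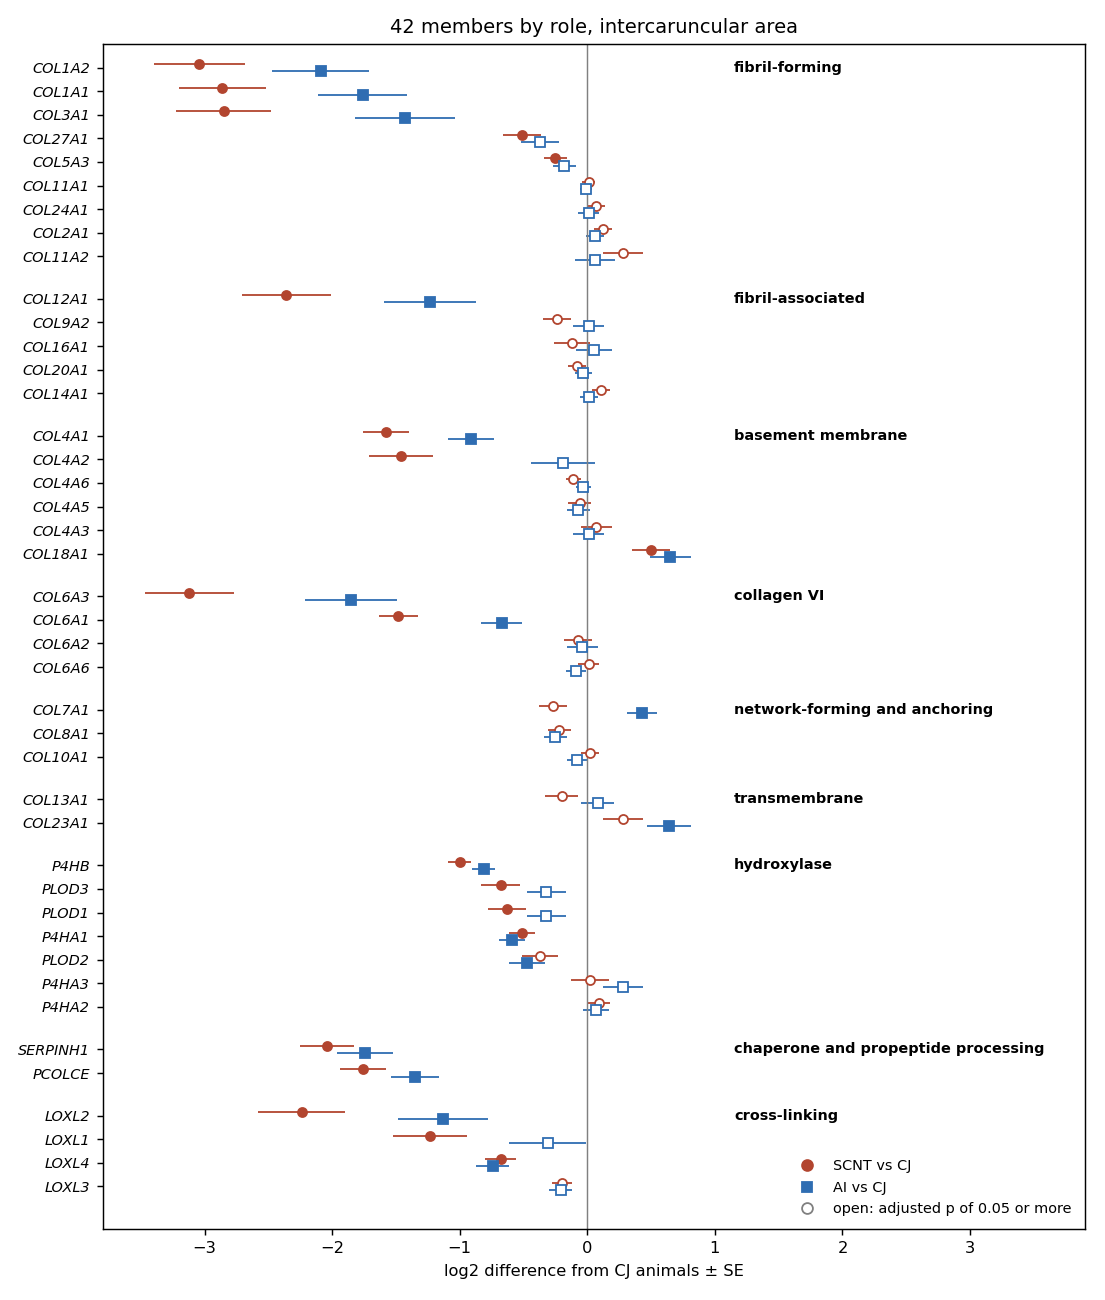
Log2 difference from CJ animals ± SE (x axis) for each of the 42 members (y axis, grouped by role) in SCNT animals (circles) and AI animals (squares) of the intercaruncular area; filled symbols have an adjusted p below 0.05. In SCNT animals 19 members lie lower and 1 higher, and in AI animals 14 lower and 3 higher; both comparisons share the 5 CJ animals.

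Among fibril-forming collagens, COL1A2 and COL1A1 encode the 2 kinds of chain of type I collagen, the main fibril of connective tissue. COL1A2 was at -3.28, -2.93, -3.49, -2.80 and -2.69 in SCNT animals 1 to 5, each the mean of 2 arrays against 2 CJ animals. COL1A1 was at -2.98, -2.75, -3.04, -2.85 and -2.67 in the same animals. COL3A1, the single chain of type III collagen, was at -2.87, -2.72, -2.83, -2.39 and -3.45. All 5 animals lay below -2 for each gene. The fitted differences were -3.04 ± 0.36 for COL1A2 (8.21-fold lower; limma adjusted p = 4.32e-06), -2.86 ± 0.34 for COL1A1 (7.25-fold; adjusted p = 4.24e-06) and -2.85 ± 0.37 for COL3A1 (7.22-fold; adjusted p = 1.13e-05).

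The same arrays were also averaged by CJ animal, which shows the spread between CJ animals and is no further test. Averaged over the 2 SCNT arrays that share a CJ animal, COL1A1 was at -3.39, -2.91, -2.25, -3.16 and -2.58 against CJ animals 1 to 5. COL3A1 was at -2.97, -2.79, -2.14, -3.72 and -2.63 against them. CJ animal 3 gave the smallest difference for both genes. For COL1A2 it was CJ animal 5 (-2.51), with CJ animal 3 at -2.52.

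COL27A1, a fibrillar collagen best known from cartilage, fell by 0.51 ± 0.15 (adjusted p = 0.0157), and COL5A3, a minor chain of the fibril-regulating type V collagen, fell by 0.25 ± 0.09 (adjusted p = 0.0477). Both calls depended on single animals. COL27A1 was no longer called without CJ animal 1 (-0.47) or 4 (-0.52) or SCNT animal 3 (-0.48) or 5 (-0.50). COL5A3 was no longer called without CJ animal 1 (-0.24), 2 (-0.23) or 4 (-0.16), IAJ animal 1 (-0.25) or SCNT animal 2 (-0.24), 3 (-0.26), 4 (-0.26) or 5 (-0.21). The cartilage collagen genes COL2A1, COL11A1 and COL11A2 and the fibrillar COL24A1 were not called, with differences from 0.01 for COL11A1 to 0.28 for COL11A2.

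Of the 5 fibril-associated collagens, COL12A1, which coats the surface of type I fibrils, fell. It was at -2.25, -2.04, -2.29, -2.50 and -2.71 in SCNT animals 1 to 5, with a fitted difference of -2.36 ± 0.35 (5.13-fold; adjusted p = 4.2e-05). COL9A2, COL14A1, COL16A1 and COL20A1 lay between -0.24 and 0.11 and were not called.

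The basement membrane collagens divided. COL4A1 and COL4A2, which pair in the type IV network of nearly all basement membranes and neighbour each other in the genome, both fell. COL4A1 was at -1.32, -1.45, -2.07, -1.66 and -1.42 by SCNT animal (fitted -1.58 ± 0.18; 3-fold; adjusted p = 1.86e-06). COL4A2 was at -1.46, -0.85, -2.08, -1.21 and -1.71 (fitted -1.46 ± 0.25; 2.75-fold; adjusted p = 0.000166). The chains of more restricted basement membranes, COL4A3, COL4A5 and COL4A6, lay between -0.11 and 0.07 and were not called. COL18A1, the precursor of endostatin, was the member that rose, by 0.50 ± 0.15 (1.41-fold; adjusted p = 0.023). Its values by SCNT animal were 0.39, 1.04, 0.15, 0.84 and 0.06, so animals 2 and 4 were high and animals 3 and 5 near 0. The COL18A1 call was lost without SCNT animal 2 (0.37) or 4 (0.39), or without CJ animal 4 (0.51) or 5 (0.49).

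Of the collagen VI chains, COL6A3 was at -2.78, -3.22, -3.64, -3.04 and -2.94 by SCNT animal, the lowest member of the set (fitted -3.12 ± 0.35; 8.72-fold; adjusted p = 2.07e-06). COL6A1 was at -2.12, -1.22, -1.23, -1.22 and -1.63 (fitted -1.48 ± 0.15; 2.8-fold; adjusted p = 9.05e-07). COL6A2, the neighbour of COL6A1 and its partner in the trimer, gave different answers on its 2 probes. The chosen probe was at -0.07, and the other at -1.24 with an adjusted p of 1.87e-05. COL6A6, an alternative chain, was at 0.01.

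Among the network-forming and anchoring collagens none was called: COL7A1, the collagen of anchoring fibrils, was at -0.27 (adjusted p = 0.09), COL8A1, a short-chain collagen of vessel walls, at -0.22 (adjusted p = 0.0876) and COL10A1 at 0.02. COL7A1 passed the threshold without CJ animal 5 (-0.41) or without IAJ animal 3 (-0.27), and COL8A1 without SCNT animal 4 (-0.30). The transmembrane collagens COL13A1 (-0.20) and COL23A1 (0.28) were not called, and COL23A1 passed without IAJ animal 3 at the same difference.

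The hydroxylases prepare the chains for folding and cross-linking. P4HB, the shared subunit of the prolyl hydroxylases and also a protein disulfide isomerase, was at -0.92, -0.99, -1.21, -0.97 and -0.89 by SCNT animal. Its fitted difference, -1.0 ± 0.09 (2-fold; adjusted p = 1.12e-07), had the smallest adjusted p of the members. The catalytic subunit P4HA1 fell by 0.51 ± 0.10 (adjusted p = 0.000825), whereas P4HA2 (0.09) and P4HA3 (0.02) were not called. The lysyl hydroxylases PLOD3 (-0.68 ± 0.15; adjusted p = 0.00153) and PLOD1 (-0.63 ± 0.15; adjusted p = 0.00363) fell. PLOD2, which marks lysines for the most stable cross-links, was at -0.37 (adjusted p = 0.0607) and passed without CJ animal 4 (-0.49), IAJ animal 3 (-0.37) or SCNT animal 5 (-0.50).

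Both genes of chaperoning and propeptide removal fell. SERPINH1, the collagen-specific chaperone, was at -2.47, -1.61, -2.66, -1.57 and -1.88 by SCNT animal (fitted -2.04 ± 0.21; 4.11-fold; adjusted p = 9.05e-07). PCOLCE, which speeds removal of the C-terminal propeptide, was at -1.59, -1.77, -1.75, -1.77 and -1.90 (fitted -1.76 ± 0.18; 3.38-fold; adjusted p = 9.05e-07). For both genes all 5 animals lay below -1.

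Of the 4 lysyl oxidase-like genes, which start cross-linking outside the cell, 3 fell. LOXL2 was at -2.11, -2.01, -2.18, -2.57 and -2.32 by SCNT animal (fitted -2.24 ± 0.34; 4.72-fold; adjusted p = 6.42e-05). LOXL1, better known from elastic fibres, was at -1.17, -1.16, -1.06, -1.27 and -1.48 (fitted -1.23 ± 0.29; 2.34-fold; adjusted p = 0.00336). LOXL4 fell by 0.68 ± 0.12 (adjusted p = 0.000397), and LOXL3 was at -0.20 (adjusted p = 0.107).

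AI animals were set against the same 5 CJ animals in the same model. Of 42 members 14 fell and 3 rose, where 8.08% of all probes fell and 6.92% rose, and the median of the members was -0.19. By set, 7 of 29 collagens and 7 of 13 processing genes fell. The 4 AI animals did not share these values: IAJ animal 3 lay at or above 0 for COL1A1, COL1A2, COL3A1, LOXL1 and LOXL2. Of 42 members, 32, 35 and 32 were below 0 in IAJ animals 1, 2 and 4, and 17 were below 0 in IAJ animal 3.

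**Figure D2:**
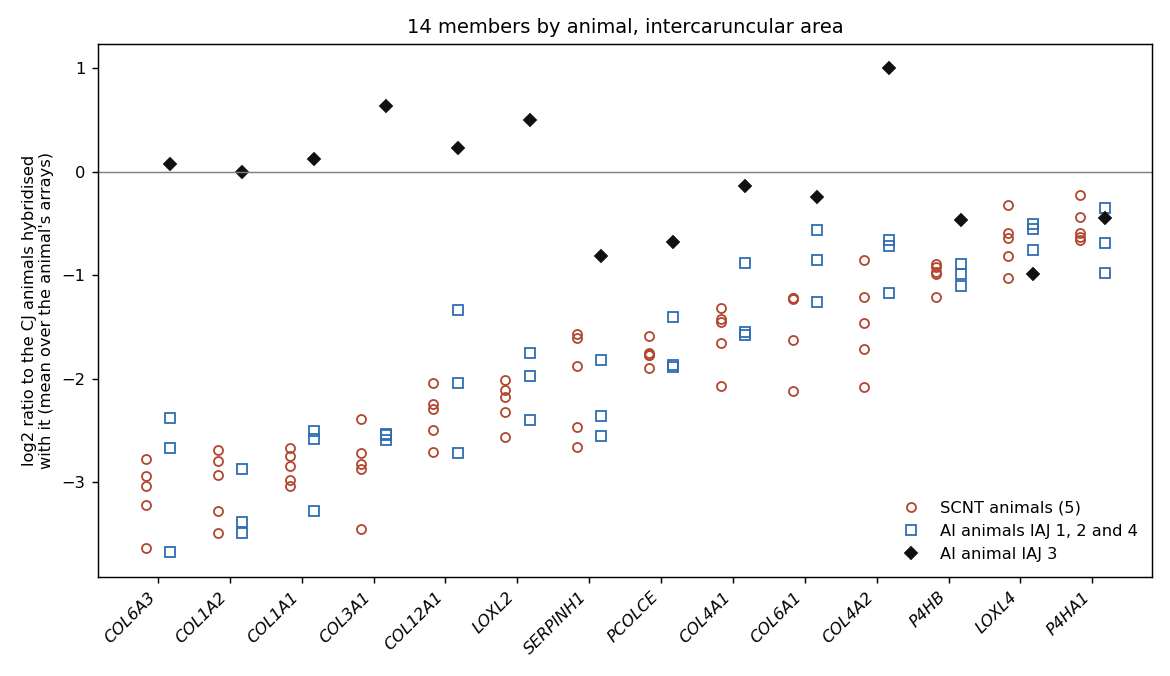
Log2 ratio to CJ animals (y axis, mean over the arrays of an animal) for the 14 members with the smallest p in either comparison with CJ (x axis); open circles are the 5 SCNT animals, open squares AI animals IAJ 1, 2 and 4, filled diamonds AI animal IAJ 3. IAJ animal 3 lies at 0.12 for COL1A1 and 0.63 for COL3A1, while for SERPINH1, PCOLCE and P4HB it lies below 0 at -0.82, -0.68 and -0.47.

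COL1A1 was at -2.58, -3.28 and -2.51 in IAJ animals 1, 2 and 4 and at 0.12 in IAJ animal 3. COL1A2 was at -3.39, -3.49 and -2.87 in IAJ animals 1, 2 and 4 and at 0.00 in IAJ animal 3. COL3A1 was at -2.55, -2.59, -2.54 and, in IAJ animal 3, 0.63. For these genes 3 animals lay in the range of the SCNT animals or close to it, and the other lay with the CJ animals. With all 4 animals the differences were -1.76 ± 0.35 for COL1A1 (adjusted p = 0.00149), -2.09 ± 0.38 for COL1A2 (adjusted p = 0.000561) and -1.43 ± 0.39 for COL3A1 (adjusted p = 0.0135). Without IAJ animal 3 they were -2.79 ± 0.18, -3.25 ± 0.19 and -2.56 ± 0.21. The COL3A1 call was lost without CJ animal 1 (-1.19) or 2 (-1.13) or IAJ animal 1 (-1.16), 2 (-1.11) or 4 (-1.17). COL27A1 was not called with all animals (-0.37; adjusted p = 0.122) and fell without IAJ animal 3 (-0.75) or CJ animal 3 (-0.51).

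COL6A3 was at -2.38, -3.68, 0.07 and -2.67 in IAJ animals 1 to 4 (fitted -1.85 ± 0.36; adjusted p = 0.00121; -2.91 without IAJ animal 3). COL12A1 was at -1.34, -2.72, 0.23 and -2.04 (fitted -1.23 ± 0.36; adjusted p = 0.0223; -2.03 without IAJ animal 3). The COL12A1 call was lost without CJ animal 1 (-1.02), 2 (-1.14), 4 (-1.09) or 5 (-1.22) or IAJ animal 1 (-1.24), 2 (-0.79) or 4 (-1.08). COL6A1 was at -0.56, -1.26, -0.25 and -0.85 (fitted -0.67 ± 0.16; adjusted p = 0.00552; -0.89 without IAJ animal 3) and lost its call without IAJ animal 2 (-0.48). The other probe of COL6A2 was at -0.62 (adjusted p = 0.0179), and the chosen one at -0.04.

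For the basement membrane, COL4A1 was at -1.55, -1.58, -0.14 and -0.88 (fitted -0.91 ± 0.18; adjusted p = 0.00145; -1.34 without IAJ animal 3). COL4A2 was at -1.17, -0.72, 1.00 and -0.66, was not called with all animals (-0.19 ± 0.25; 95% interval -0.72 to 0.34) and fell without IAJ animal 3 (-0.85; adjusted p = 0.00497). COL18A1 was at 0.59, 0.32, 1.11 and 0.27 and rose by 0.65 ± 0.16 (adjusted p = 0.00669), a call lost without IAJ animal 3 (0.39; adjusted p = 0.109). The 2 other members called higher rested on the same animal. COL7A1 was at 0.06, 0.26, 0.79 and 0.35 (0.43 ± 0.12; adjusted p = 0.0148; 0.22 without it), and COL23A1 at 0.08, 0.48, 1.28 and 0.34 (0.64 ± 0.17; adjusted p = 0.00966; 0.30 without it). Without IAJ animal 3 no member rose, where 10.1% of all probes did. COL7A1 also lost its call without CJ animal 4 (0.40), and COL23A1 without CJ animal 2 (0.60) or 4 (0.67). COL8A1 was called lower without CJ animal 3 (-0.29).

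For several processing genes IAJ animal 3 was below 0 with the other AI animals. SERPINH1 was at -2.36, -2.56, -0.82 and -1.82 in IAJ animals 1 to 4 (fitted -1.74 ± 0.22; 3.33-fold; adjusted p = 1.55e-05; -2.25 without IAJ animal 3). PCOLCE was at -1.87, -1.89, -0.68 and -1.41 (fitted -1.35 ± 0.19; 2.54-fold; adjusted p = 4.9e-05; -1.72 without it). P4HB was at -1.11, -0.99, -0.47 and -0.89 (fitted -0.81 ± 0.09; 1.75-fold; adjusted p = 4.33e-06; -1.0 without it). For these 3 genes every AI animal lay below 0, with IAJ animal 3 the nearest to it. P4HA1 was at -0.98, -0.69, -0.45 and -0.35 (fitted -0.59 ± 0.10; adjusted p = 0.000471; -0.67 without it), and LOXL4 at -0.51, -0.76, -0.99 and -0.55 (fitted -0.74 ± 0.13; adjusted p = 0.000422; -0.61 without it). IAJ animal 3 was inside the range of the others for P4HA1 and the lowest animal for LOXL4.

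The 2 cross-linking genes that fell furthest in SCNT animals differed between AI animals. LOXL2 was at -2.40, -1.75, 0.50 and -1.98 (fitted -1.13 ± 0.35; adjusted p = 0.0337; -2.04 without IAJ animal 3). Its call was lost without CJ animal 1 (-0.91), 2 (-0.79), 4 (-1.03) or 5 (-1.32) or IAJ animal 1 (-0.84), 2 (-0.96) or 4 (-0.96). LOXL1 was at -1.33, -1.13, 1.27 and -1.05, not called with all animals (-0.31 ± 0.30; adjusted p = 0.673), and at -1.17 ± 0.15 without IAJ animal 3 (adjusted p = 1.83e-05).

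The lysyl hydroxylases changed with the choice of animals too. PLOD2 fell by 0.47 ± 0.14 (adjusted p = 0.0285), a call lost without CJ animal 2 (-0.47), 4 (-0.46) or 5 (-0.39) or IAJ animal 2 (-0.37), 3 (-0.42) or 4 (-0.47). PLOD3 was at -0.58, -0.69, 0.21 and -0.58 in IAJ animals 1 to 4, with IAJ animal 3 alone above 0. PLOD1 and PLOD3 were each at -0.32 and not called, and fell without IAJ animal 3 (PLOD1 -0.63, PLOD3 -0.62) or CJ animal 3 (-0.44 each).

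Counted over the whole set, 13 members were lower and 1 (COL18A1) was higher in both comparisons with CJ, 6 were called in SCNT animals alone, 3 in AI animals alone and 19 in neither. The comparisons share their CJ animals, and a call in 1 comparison alone is no test of a difference. Of all probes 21.7% were called in SCNT animals and 15% in AI animals. The share of all probes called in both was not counted, so the joint counts describe the members alone. Without IAJ animal 3, AI animals had 18 members lower and 0 higher against CJ (20.4% of all probes called in either direction), and SCNT animals 21 lower and 2 higher (27.5% of all probes). Both comparisons share 1 estimate of the spread, so leaving out an AI animal can change calls in SCNT animals.

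SCNT and AI animals were then compared with each other through CJ, which tests the difference itself. The median of the members was -0.16, and 1 of 42 members was called, COL7A1, which was lower in SCNT animals by 0.70 ± 0.15 (adjusted p = 0.0387). Of all probes 0.0289% were called lower and 0.253% higher. COL7A1 was at -0.37, -0.23, -0.60, 0.02 and -0.20 against CJ in SCNT animals and at 0.06 to 0.79 in AI animals. The call was lost without IAJ animal 3 (-0.50; adjusted p = 0.404), 2 (-0.76) or 4 (-0.71), without CJ animal 1 (-0.73), 2 (-0.74), 3 (-0.69) or 4 (-0.61), and without SCNT animal 1 (-0.68), 2 (-0.72), 3 (-0.63) or 5 (-0.70). Without IAJ animal 2, COL6A1 was called lower in SCNT animals (-1.0; adjusted p = 0.026).

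The fibrillar chains COL1A1, COL1A2 and COL3A1 and the collagen VI chain COL6A3 were not called in this comparison. COL3A1 was at -1.42 (95% interval -2.43 to -0.42; adjusted p = 0.38), COL6A3 at -1.27 (-2.22 to -0.33; adjusted p = 0.409), COL1A1 at -1.10 (-2.02 to -0.18; adjusted p = 0.527) and COL1A2 at -0.94 (-1.92 to 0.04; adjusted p = 0.678). These values came with IAJ animal 3 in the AI group. Without it COL3A1 was at -0.29 ± 0.27, COL6A3 at -0.21 ± 0.28, COL1A1 at -0.07 ± 0.23 and COL1A2 at 0.21 ± 0.24, and the median of the members was -0.02. P4HB was at 0.00 ± 0.11 without it. The differences that stayed largest without IAJ animal 3 were COL4A2 (-0.61 ± 0.26), COL6A1 (-0.59 ± 0.20) and COL7A1 (-0.50 ± 0.15), and no member was called.

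**Figure D3:**
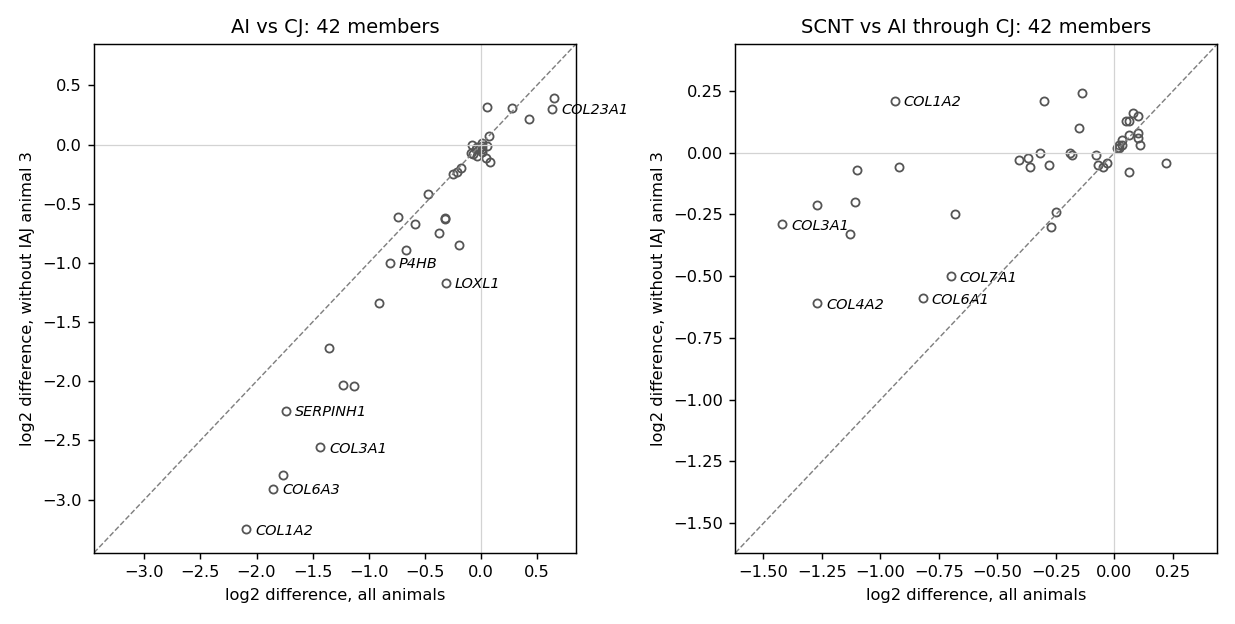
Log2 difference of each of the 42 members with all animals (x axis) and without AI animal IAJ 3 (y axis), for AI against CJ (left) and SCNT against AI through CJ (right); the dashed line marks equal values. On the left COL3A1 goes from -1.43 to -2.56, and on the right from -1.42 to -0.29.

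In the caruncular area SCNT was set directly against AI in pools, 2 pairs of pools with the dyes swapped within each pair. No member was called, as no probe was (0%), while 10 of 42 members had an unadjusted p below 0.05, where 12.6% of all probes did. The median was 0.04. Pool values are given as those of the pair with SCNT pool 1 and of the pair with SCNT pool 2.

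COL1A2 was at 0.84 and 0.72, COL6A3 at 0.65 and 0.67, COL27A1 at 0.84 and 0.56 and COL1A1 at 0.79 and 0.34. Both pairs lay above 0 for these genes, on the side of SCNT. The fitted differences were 0.78 ± 0.09 for COL1A2 (limma adjusted p = 0.0999), 0.66 ± 0.08 for COL6A3 (adjusted p = 0.114), 0.70 ± 0.10 for COL27A1 (adjusted p = 0.127) and 0.56 ± 0.13 for COL1A1 (adjusted p = 0.221). COL3A1 was at 0.09 and -0.01, COL4A5, a chain of restricted basement membranes, at 0.83 and 0.20, and LOXL2 at 0.23 and 0.53. COL4A2 was at -0.20 and -0.49, and PLOD3 at 0.01 and -0.56.

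The pairs of pools differed in other genes. The median of 8 trophoblast markers was 1.88 in the first pair and 0.27 in the second, and that of the 5 stromal markers without collagens 0.09 and -0.15. The median of 8 epithelial markers was -0.14 and -0.56. Their part in the values of the members was not tested. The pools and the intercaruncular animals lie in different areas and different designs, and no test joins them.

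**Figure D4:**
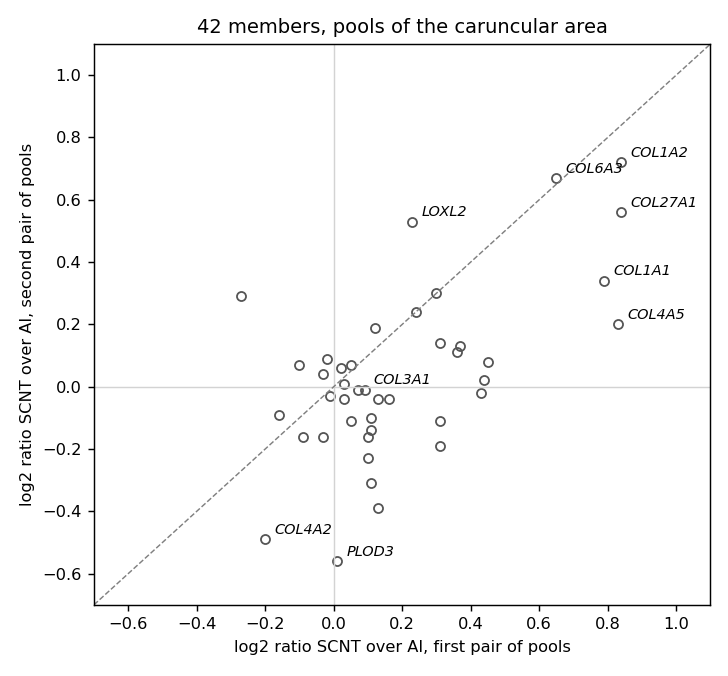
Log2 ratio of SCNT over AI for each of the 42 members in the pair with SCNT pool 1 (x axis) and the pair with SCNT pool 2 (y axis) of the caruncular area, each the mean of 2 arrays with swapped dyes; the dashed line marks equal values. COL1A2 lies at 0.84 and 0.72 and COL6A3 at 0.65 and 0.67, while COL3A1 lies near 0 on both axes.

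IVF-ET and AI animals were compared in both areas. In the caruncular area no member was called, where 0.0217% of all probes were. An unadjusted p below 0.05 was reached by 4 of 42 members (9.52%), close to the 9.11% of all probes. The median was -0.03. COL1A1 was at -0.19, -0.69, -0.24, 0.19 and 0.68 in IVF-ET animals 1 to 5, each against its 2 AI partners, and the values fell on both sides of 0. COL1A2 was at 0.12, -0.51, -0.38, -0.34 and 0.42, and COL3A1 at 0.14, -0.57, -0.79, 0.27 and -0.23. The fitted differences and 95% intervals were -0.05 (-0.42 to 0.32) for COL1A1, -0.14 (-0.45 to 0.17) for COL1A2 and -0.24 (-0.54 to 0.07) for COL3A1. All 3 intervals exclude differences as large as those between SCNT and CJ animals in the intercaruncular area. That comparison differs in area and in reference group, CJ in place of AI, and no test joins them.

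These 4 members, at the share seen over all probes, were COL12A1 (0.21 ± 0.06; adjusted p = 0.361), COL18A1 (-0.49 ± 0.19; adjusted p = 0.473), COL6A3 (-0.34 ± 0.14; adjusted p = 0.502) and the prolyl hydroxylase subunit P4HA2 (-0.18 ± 0.06; adjusted p = 0.442). COL12A1 was above 0 in each of the 5 IVF-ET animals (0.07 to 0.36), and P4HA2 was below 0 in each (-0.35 to -0.05). Both genes were picked by a small p in these same arrays, so the shared sign is no separate evidence. COL18A1 was at -1.22, -0.80, -0.68, -0.06 and 0.32, with IVF-ET animals 1 to 3 low and animals 4 and 5 near or above 0.

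In the intercaruncular area no member was called either, where 0.00724% of all probes were. An unadjusted p below 0.05 was reached by 5 of 42 members (11.9%), near the 9.3% of all probes. The median was 0.09. The fibrillar genes were spread widely between arrays. COL1A1 ran from -3.89 on the array of IVF-ET animal 4 with AI animal IAT 2 to 3.05 on that of IVF-ET animal 5 with IAT 4. The array of IVF-ET animal 5 with IAT 3 read -2.87, so the 2 arrays of IVF-ET animal 5 had opposite signs. IVF-ET animal 3 was at 1.63 and 1.09 against IAT 2 and IAT 7, and the 5 other arrays lay between -0.40 and 0.92. COL1A2, COL3A1 and COL6A3 had the same signs as COL1A1 on the 3 extreme arrays.

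On the same 3 arrays the interferon-stimulated genes lay on the opposite side of 0 from COL1A1. Their median was 3.18 for IVF-ET 4 with IAT 2, 3.74 for IVF-ET 5 with IAT 3 and -4.11 for IVF-ET 5 with IAT 4. The 5 stromal markers without collagens went with the collagens (-1.09, -1.01 and 1.77). Smooth muscle markers were at -0.25, -1.01 and 1.62. The arrays form a closed loop, so the signed ratios around it should sum to the dye effect and error alone. That sum was 3.09 for COL1A1, 3.88 for COL1A2, 1.95 for COL3A1 and 3.60 for COL6A3 in this loop, against 0.23, 0.23, 0.21 and 0.41 in the caruncular loop. Over all probes the size of the sum had a median of 1.54 and a 90th percentile of 3.68 in this loop, and 0.69 and 1.79 in the caruncular one. COL1A1, COL3A1 and COL6A3 lay below that 90th percentile and COL1A2 above it. What set these arrays apart was not tested.

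**Figure D5:**
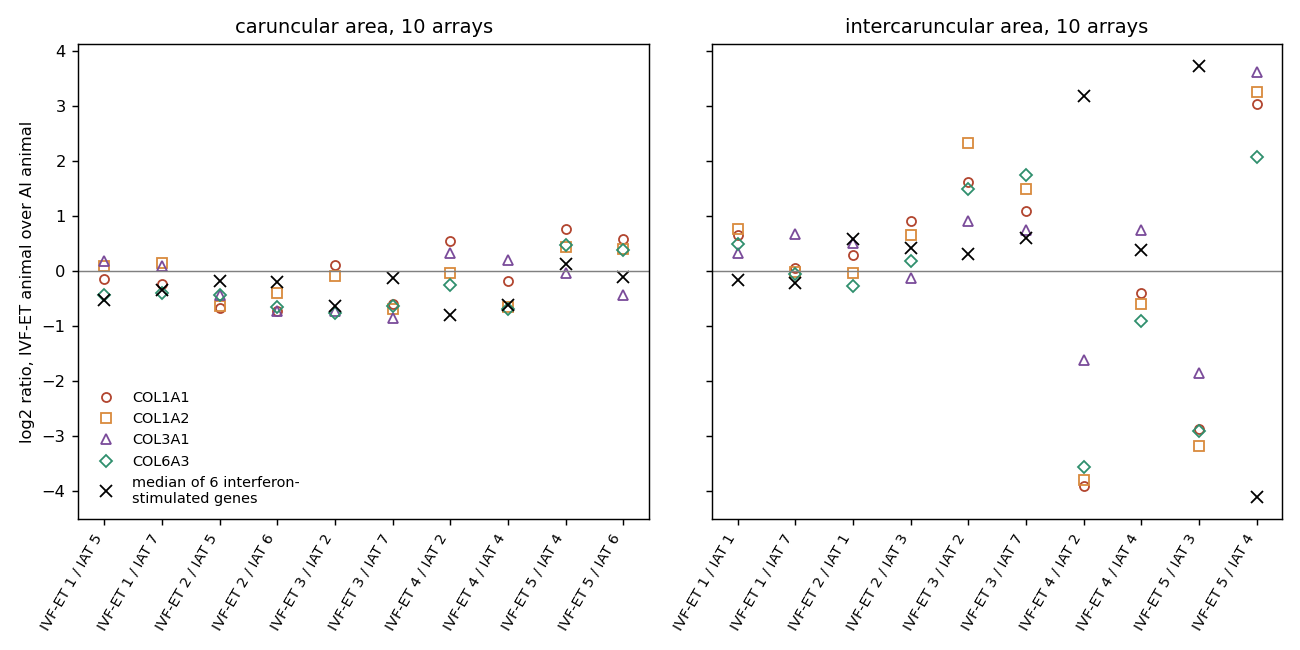
Log2 ratio of the IVF-ET animal over the AI animal (y axis) on each of the 10 arrays of the caruncular (left) and intercaruncular (right) loop (x axis, animals of each array) for COL1A1, COL1A2, COL3A1 and COL6A3, with the median of 6 interferon-stimulated genes as crosses. On 3 intercaruncular arrays, IVF-ET 4 with IAT 2, IVF-ET 5 with IAT 3 and IVF-ET 5 with IAT 4, COL1A1 was at -3.89, -2.87 and 3.05 and the interferon median at 3.18, 3.74 and -4.11.

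With this spread the intercaruncular differences were imprecise. COL1A1 was at 0.05 (95% interval -1.10 to 1.21), COL1A2 at 0.09 (-1.14 to 1.33) and COL3A1 at 0.40 (-0.45 to 1.25). Without IVF-ET animal 5 they were 0.05 ± 0.46, 0.11 ± 0.49 and 0.28 ± 0.20. Without IVF-ET animal 4 they were 0.60 ± 0.41, 0.66 ± 0.47 and 0.61 ± 0.40. COL1A1 was at 0.35 ± 0.34 without IAT animal 2 and at -0.26 ± 0.56 without IAT animal 4, and it was not called in any of these. P4HB, whose arrays stayed between -0.49 and 0.33, was at 0.00 ± 0.09, and at 0.03 ± 0.10 without IVF-ET animal 4 or without IVF-ET animal 5.

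The 5 members with an unadjusted p below 0.05, a share near that of all probes, were COL4A1 (0.43 ± 0.13; adjusted p = 0.441), LOXL3 (0.34 ± 0.11; adjusted p = 0.469), COL16A1 (0.26 ± 0.10; adjusted p = 0.488), COL9A2 (0.22 ± 0.08; adjusted p = 0.488) and LOXL4 (-0.25 ± 0.09; adjusted p = 0.482). COL16A1 and COL9A2 belong to the fibril-associated collagens. Without IVF-ET animal 4 these differences were 0.53, 0.36, 0.25, 0.23 and -0.29, and without IVF-ET animal 5 they were 0.41, 0.39, 0.27, 0.15 and -0.23, in the same order. The difference of IVF-ET from AI was compared between the areas in 1 model, which took the areas of an animal as separate. No member was called, where 0.00723% of all probes were. The median was -0.11. An unadjusted p below 0.05 was reached by 7 of 42 members (16.7%), where 7.74% of all probes reached it. The caruncular minus the intercaruncular difference was -0.45 ± 0.15 for COL4A1 (adjusted p = 0.574) and -0.10 for COL1A1 (95% interval -1.41 to 1.20).

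Other genes of the pathway were taken from lists of collagen biosynthesis, breakdown, binding and reception. Beside their counts, 11.3% of all probes fell and 10.4% rose in SCNT animals, and 8.08% fell and 6.92% rose in AI animals. Without IAJ animal 3 these shares were 14.3% and 13.2% in SCNT animals and 10.3% and 10.1% in AI animals. Of 15 further biosynthesis genes 10 fell in SCNT animals and 11 in AI animals against CJ, and none rose. PYCR1, which makes proline, was at -2.14 ± 0.14 in SCNT (adjusted p = 1.56e-09) and -1.85 ± 0.14 in AI animals (adjusted p = 3.2e-08). The prolyl isomerases PPIB (-0.86 and -0.62), FKBP10 (-1.64 and -1.26) and FKBP14 (-0.69 and -0.59) fell in both comparisons as well. Without IAJ animal 3, 10 of the 15 fell in each.

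Of 12 genes of collagen breakdown and uptake, 4 fell and 1 rose in SCNT animals, and 1 fell in AI animals (6 fell and 1 rose in each without IAJ animal 3). The 1 gene in AI animals is a share near the 8.08% of all probes that fell there. The protease inhibitor TIMP1 was at -1.65 ± 0.15 in SCNT (adjusted p = 1.27e-07) and -1.10 ± 0.15 in AI animals (adjusted p = 4.26e-05). TIMP2 rose by 1.68 ± 0.28 in SCNT animals (adjusted p = 0.000137) and was at 0.65 in AI animals (adjusted p = 0.153). Of 11 matrix proteins that bind collagen, 9 fell in SCNT and 4 in AI animals (9 and 7 without IAJ animal 3). SPARC, which binds collagen outside the cell, was at -2.17 ± 0.40 (adjusted p = 0.000441) and -1.75 ± 0.42 (adjusted p = 0.00555). Of 4 receptor genes, the integrin chain ITGB1 fell in both comparisons (-0.58 and -0.53) and the others were not called.

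Some markers of cell types were called, and others were not. Of all probes 11.3% fell and 10.4% rose in SCNT animals, and 8.08% fell and 6.92% rose in AI animals. In lists this short, 1 or 2 calls cannot be told apart from those shares. Of 5 stromal fibroblast markers other than collagens, DCN, LUM and VIM fell in SCNT animals and none was called in AI animals. THY1 (-0.70) and S100A4 (0.54), the latter in the other direction, were not called in SCNT animals, where 4 markers fell and 1 rose without IAJ animal 3. DCN and LUM are also among the matrix proteins above. Of 6 smooth muscle markers, 5 fell in SCNT animals (ACTG2 -2.67, MYH11 -0.58) and 3 in AI animals (ACTG2 -2.12), with DES at 0.02 and 0.04. By animal, the smooth muscle median ran from -2.23 to -1.75 in SCNT animals, from -2.38 to -2.15 in IAJ animals 1, 2 and 4 and was -0.44 in IAJ animal 3. The stromal median ran from -1.28 to -0.39 in SCNT animals and from -1.39 to -0.74 in IAJ animals 1, 2 and 4, and was 1.11 in IAJ animal 3. Of 8 epithelial markers 3 rose and 1 fell in SCNT animals and 2 rose in AI animals. Of 5 endothelial markers 2 rose and 1 fell in SCNT animals, and 1 rose and 1 fell in AI animals. None of 4 leukocyte markers was called in either. Without IAJ animal 3, 3 stromal markers fell and 1 rose in AI animals, 4 smooth muscle markers fell, and 3 epithelial markers rose and 1 fell. Of all probes without it, 14.3% fell and 13.2% rose in SCNT animals, and 10.3% fell and 10.1% rose in AI animals. Of 8 trophoblast markers, 4 rose in SCNT animals (TKDP1 0.88, PAG9 0.63) and none was called in AI animals. The part of these cell types in the values of the collagen genes was not tested.

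Each probe was spotted 2 times on an array. Over the 44 arrays, the size of the difference between the spots had a median of 0.133 (0.081 to 0.197) on the log2 scale for the 23 members called in SCNT or AI animals against CJ. For the 19 members called in neither it was 0.148 (0.126 to 0.200). The SD over arrays, which the calls themselves depend on, was 0.946 at the median for the former and 0.271 for the latter. The 19 uncalled members are not shown to be alike in the groups.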

How the data were processed

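The authors deposited a log2 ratio for every spot of every array. The base was tested on 331 values below -4, of which 100.0% matched a log2 and 0.9% a natural log. How the authors normalised them is not given in the sources used here. Medians of the arrays were between -0.0164 and 0.0124. The 27648 rows hold 13824 probes in 2 spots, which were averaged. Each gene's probe was the one with the fewest missing values, then the first row; symbols came from the platform annotation, updated through RefSeq names (ARS-UCD2.0). Probes with a value on 80% of arrays were fitted in R 4.3.3 with limma 3.58.1 (generalised least squares) on the groups and a dye effect. A single correlation was used between arrays of the same animal: 0.13 and 0 in the caruncular and intercaruncular IVF-ET loops and 0.12 in the fit with CJ. In both loops together it was 0.01, between arrays of the same animal and area. The areas of an animal were taken as separate there, so that pairing was not used. Each pair of pools was averaged and tested against 0. Members named with statistics were those past the threshold, up to 12 a comparison by size, and values by animal were given for up to 14; other members and genes named, such as those with a small unadjusted p, were chosen after their values were seen. The scripts were tested on simulated data. The members and lists were chosen with earlier results of these data known. Animals are numbered within their group; IAT numbers run over both areas. The labels name animals, and the fits were made on single arrays with the correlations above. P-values therefore rest on the spread between arrays, and allow for shared animals only as far as that correlation does. With the correlation of 0 in the intercaruncular IVF-ET loop, arrays were treated as independent. For pools, p-values rest on the spread between pairs of pools. Alternatives were array centring and scaling, the probe filter, the other probe of a gene, a robust prior, other correlations, no dye term, the 10 arrays of a comparison alone, a block per animal over its areas, and leaving out each animal.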

Additional observations from a re-analysis of the deposited data

Results flagged for a closer look

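In AI animals against CJ, Dixon's outlier test marked IAJ animal 3 against the 3 other animals for 3 members. COL3A1 was at 0.63 in it, against -2.55, -2.59 and -2.54. LOXL1 was at 1.27, against -1.33, -1.13 and -1.05, and PLOD3 at 0.21, against -0.58, -0.69 and -0.58. The test was made on 55 groups of animals and found these 3. Chance alone gives about 1 in 20 groups, and 3 of 55 is near that share. The groups hold the same few animals and are not independent, and all 3 marks fell on IAJ animal 3. The share therefore says little about that animal. The test asks for a gap that is large beside the spread of the other animals. COL1A1 (0.12), COL1A2 (0.00) and COL6A3 (0.07) in IAJ animal 3 also lay far above the other AI animals but did not pass it.

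COL7A1 was called in the comparison of SCNT with AI animals through CJ, at -0.70 ± 0.15 (limma adjusted p = 0.0387). Its differences from CJ were -0.27 in SCNT and 0.43 in AI animals. Leaving out 1 animal at a time, the call was lost for 11 of the 14 animals, among them IAJ animal 3 (-0.50; adjusted p = 0.404), and with a correlation of 0.3 (-0.67).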

How the results depend on the processing

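The number of members called, leaving out 1 animal at a time, ran from 18 to 23 for SCNT against CJ (20 with all), from 12 to 21 for AI against CJ (17 with all) and from 0 to 1 for SCNT against AI through CJ (1 with all). Over the same fits the share of all probes called ran from 14.8% to 27.5% (21.7% with all), from 9.3% to 20.4% (15%) and from 0.0579% to 0.383% (0.282%). The member counts thus moved while the calls over all probes moved too. With its 10 arrays alone, AI against CJ called 11 members, and the share of all probes in that fit is not given here. SCNT against AI called 0 with arrays scaled to 1 spread, with a correlation of 0.3 and with no dye term. The IVF-ET comparisons and the pools called 0 members under every alternative run. No called difference of a named member changed sign. The uncalled COL1A1 difference of IVF-ET from AI in the intercaruncular area ran from -0.27 to 0.60 when 1 animal was left out. Over all probes, a correlation of 0.3 lowered the calls from 2994 to 1840 for SCNT against CJ, from 2074 to 1119 for AI against CJ and from 39 to 16 for SCNT against AI, and centring arrays on their median raised those of the pools from 0 to 16. Averaging the 2 arrays that pair IAJ animal 3 with CJ animal 3 was an alternative chosen after seeing the data. It left all 3 counts with CJ as they were, and a block per animal over its areas left the count of the area comparison at 0.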
